A study of Mus musculus with 6 samples.

Results

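Growth hormone and the genes that control its cells were followed in whole mouse pituitaries with and without the histone demethylase Jmjd2a (now Kdm4a). They are 10 genes: the hormone Gh, the stimulatory receptors Ghrhr and Ghsr, the genes Pappa2, Ceacam10 and Wnt10a, and the somatostatin receptors Sstr1, Sstr2, Sstr3 and Sstr5. They were chosen by name, with earlier results of these data known. Their probes were chosen by the RefSeq accession on the array, which gave 12 of the 55681 probes and 10 of the 20972 genes with a symbol. Pappa2 and Sstr1 had 2 probes and the other genes 1 each. The KO group held 3 Jmjd2a-/- females and the WT group 3 Jmjd2a+/+ littermates. Mice of both groups were virgin, 8 weeks old and of C57BL6 background, and both had been exposed to soiled bedding of a stud male, which starts the oestrus cycle, 24 h before the gland was taken. Each of the 6 one-colour Agilent arrays held RNA from the pituitary of 1 animal. The sources used here do not say how the null allele was made or which cells lack the protein. In whole glands, fewer cells of a type and less RNA per cell cannot be told apart.

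Somatotropes of the anterior pituitary make growth hormone. Growth hormone-releasing hormone from the hypothalamus acts on them through Ghrhr, a receptor coupled to cyclic AMP, and raises both transcription of Gh and release of the hormone. Ghrelin adds to release through Ghsr, and somatostatin restrains it through receptors that couple to inhibitory G proteins.

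The RefSeq promoter table (GRCm38.p6) held 5 of the 10 genes, Pappa2, Ghsr, Ceacam10, Sstr2 and Sstr3. The promoter windows of Ghsr and Ceacam10 are shown because these were the tested genes of the table whose KO and WT values did not overlap at the scaling used here. Each runs 5′ to 3′ on the plus strand, with 250 bases before and 50 bases after the gene's start, at chr3:27371101-27371400 for Ghsr and chr7:24776917-24777216 for Ceacam10. Capitals mark the E-box, the letters CANNTG that basic helix-loop-helix factors bind.
Ghsr: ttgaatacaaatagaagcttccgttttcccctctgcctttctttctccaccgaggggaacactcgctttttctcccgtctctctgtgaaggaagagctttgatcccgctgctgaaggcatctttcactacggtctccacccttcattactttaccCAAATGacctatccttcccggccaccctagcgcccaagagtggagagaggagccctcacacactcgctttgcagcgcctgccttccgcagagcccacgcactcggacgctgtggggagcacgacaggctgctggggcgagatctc
Ceacam10: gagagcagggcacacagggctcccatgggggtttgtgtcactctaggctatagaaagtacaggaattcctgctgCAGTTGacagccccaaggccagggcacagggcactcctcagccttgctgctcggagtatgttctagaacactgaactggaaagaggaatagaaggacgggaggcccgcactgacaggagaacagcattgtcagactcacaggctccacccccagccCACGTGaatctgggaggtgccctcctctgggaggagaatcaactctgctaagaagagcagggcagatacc
The Ghsr window held 1 E-box, CAAATG, which begins at position -95 from the start. The Ceacam10 window held 2 E-boxes, CAGTTG at position -176 and CACGTG at position -20. The table lists a second Ceacam10 start on the same strand, with a window at chr7:24776954-24777253, and counted from that start the same E-boxes lie at -213 and -57. An E-box occurred in 72.3% of the 32851 promoter windows of the same length. Neither window held, on either strand, the core ATGNATA bound by the pituitary factor POU1F1 (8.84% of all windows), the cyclic AMP response element half-site TGACG (20.8%) or the TATA box TATAAA (13.6%). Of the 5 genes in the table, the Pappa2 window alone held ATGNATA. A match describes letters, not a bound site.

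Levels are given as log2 signal relative to the 75th percentile of each array's signal, so 0 is the 75th percentile, and differences are log2 KO over WT with the standard error (SE) from limma, the linear-model tool. Between 34634 and 37586 probes lay well above background on KO arrays and between 34751 and 40567 on WT arrays. The number of arrays limits the precision of every value. The targeted gene, Kdm4a, read 1.35 ± 0.13 in KO and 1.97 ± 0.15 in WT (SD, n = 3 each), a difference of -0.62 ± 0.14 that did not pass limma's test (adjusted p = 0.24). Which exons the null allele lacks is not stated, so the probe checks the labels only in part. Limma called 0 of 26887 features at an adjusted p under 0.05 (0%), and 3443 features (12.8%) had an unadjusted p under 0.05. Of the growth hormone genes, 0 of the 9 that could be tested were called and 2 had an unadjusted p under 0.05, Ceacam10 on the higher side (3.99% of all features) and Ghrhr on the lower side (8.81%). With 3 arrays against 3, the smallest p of an exact two-sided permutation test is 0.1.

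**Figure D1:**
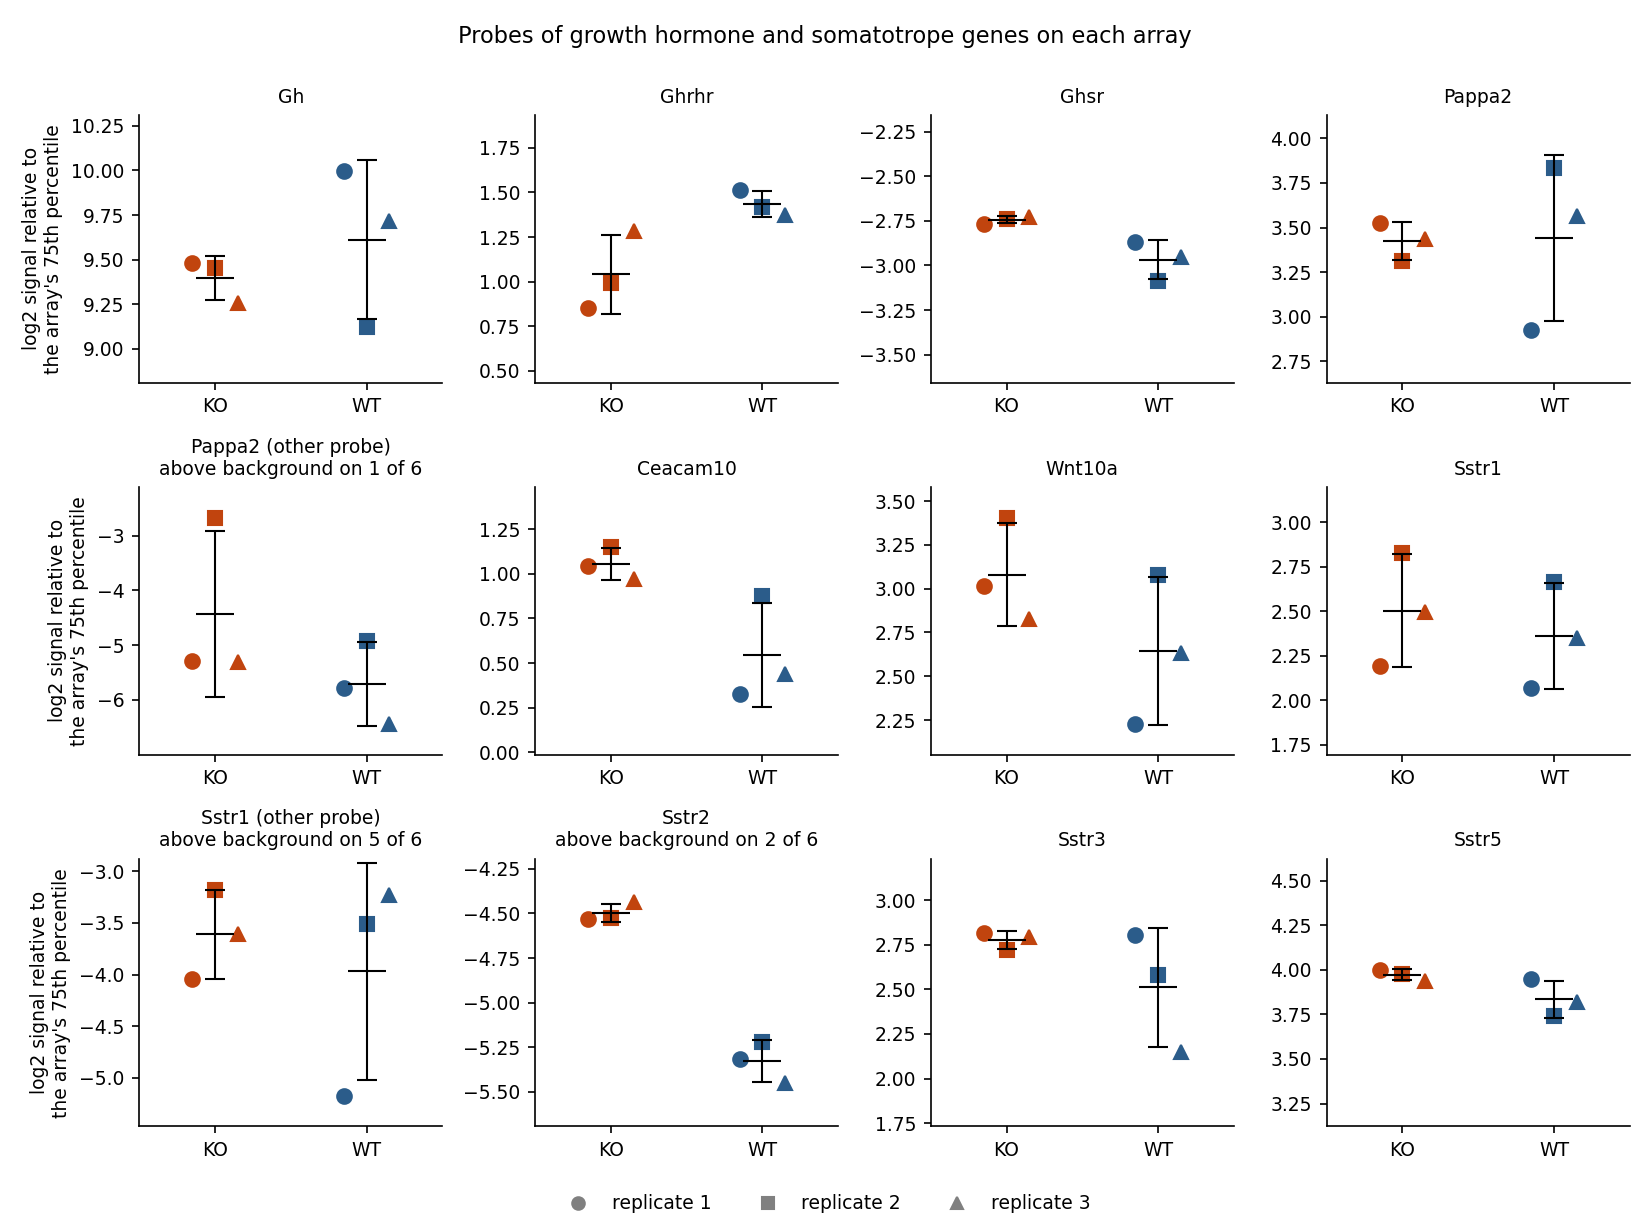
Level of each of the 12 probes on every array (log2 signal relative to the array's 75th percentile), 1 panel per probe with its own vertical axis, KO left of WT; symbols are replicates and bars the mean and SD (n = 3). At this scaling KO and WT are separate for Ghrhr (lower in KO), for Ghsr and Ceacam10 (higher in KO), and for the dim Sstr2 probe, which was not tested.

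Gh itself, the main product of somatotropes, did not differ beyond the spread of the WT arrays. Its level was 9.48, 9.45 and 9.26 on the KO arrays and 9.998, 9.12 and 9.72 on the WT arrays. The 3 KO values lay between the lowest and the highest WT value. Gh averaged 9.40 ± 0.12 in KO and 9.61 ± 0.45 in WT (SD, n = 3 each). The difference was -0.21 ± 0.23 (95% interval -0.76 to 0.33, adjusted p = 0.678 by limma). An interval this wide holds both a lower and a higher scaled Gh level in KO. The spread behind it was largely that of the 75th percentiles, described next. The difference was -0.46 without WT replicate 2 (adjusted p = 0.197 by limma, against 0.349 to 1 in its other tested alternatives) and -0.02 without WT replicate 1.

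The Gh spot was the brightest on every array, and the file flags marked no non-control spot as saturated (0 spots). These flags concern the scanner's limit, and whether the signal of so bright a probe followed the amount of RNA was not tested. Before scaling, its signal was 176230, 163340 and 185700 intensity units on KO arrays and 174210, 173610 and 162040 on WT arrays. These 6 signals differed by at most 1.15-fold. The 75th percentile by which they were scaled ran from 233.07 to 303.21 on KO arrays and from 170.32 to 311.44 on WT arrays, a 1.83-fold range over all 6. The order of the scaled Gh values was therefore largely that of the 75th percentile turned over: the centred Gh level and the centred negative log2 of the percentile differed by a root mean square of 0.0669. The mean log2 75th percentile was 0.256 higher in KO than in WT. Scaling lowered the KO over WT difference of every probe by that amount. Without scaling the Gh difference was 0.04, it was 0.13 in the authors' deposited table, and after quantile normalization exactly 0, since a value that ranks first on every array is set to the same number there.

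**Figure D2:**
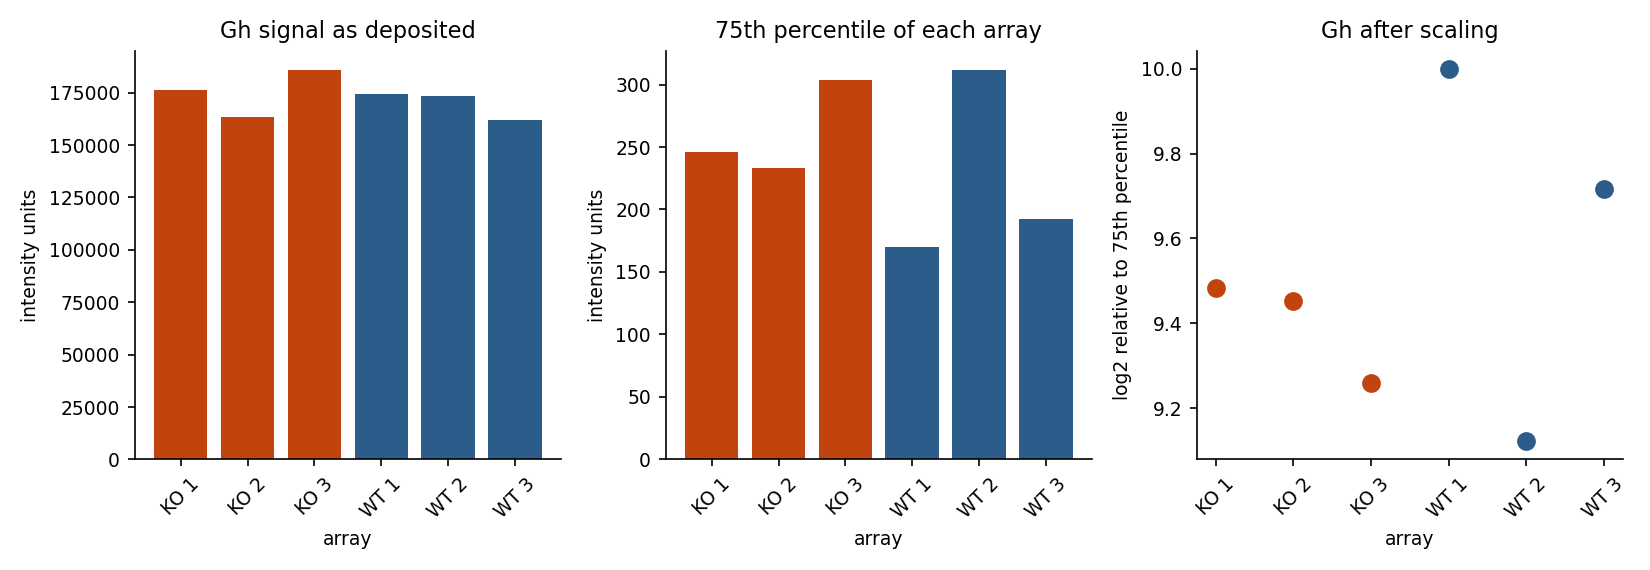
Gh signal before scaling (left) and the array's 75th percentile (middle), as bars in intensity units, and the scaled Gh level (right, log2), on each of the 6 arrays with KO left of WT. Gh signals lie within 1.15-fold of each other, whereas the 75th percentile ranges 1.83-fold, with the lowest and the highest value both on WT arrays. The mean log2 75th percentile is 0.256 higher in KO than in WT.

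By the measure used for likeness, the root mean square difference of mean-centred log2 levels over the 6 arrays, the 5 genes nearest to Gh were Pomc (0.0282), Krt80 (0.0350), Prl (0.0405), Tulp2 (0.0416) and Oog4 (0.0453). The median over 16460 genes was 0.35. Pomc encodes the precursor of corticotropin and Prl encodes prolactin. Their signals before scaling, like that of Gh, were nearly level: 108400 to 125880 intensity units for Pomc and 126120 to 139300 for Prl. The probes of Krt80 (270 to 313) and Oog4 (14.3 to 16.4), far below these in signal, varied as little. All of these genes share the same 6 divisors.

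Ghrhr, the receptor for growth hormone-releasing hormone, read lower in KO on every array, without passing the test. Its level was 0.85, 0.99 and 1.29 on KO arrays and 1.51, 1.42 and 1.37 on WT arrays. KO replicate 3 came within 0.1 of the lowest WT array, and the groups did not overlap. The group means were 1.04 ± 0.22 in KO and 1.44 ± 0.07 in WT (SD, n = 3 each). The difference was -0.39 ± 0.15, a fold of 0.761 (95% interval of the log2 difference -0.74 to -0.04), with an unadjusted p of 0.0326 and an adjusted p of 0.363 in limma's fit, and an exact permutation p of 0.1. The sign held in all 19 alternatives, from -0.52 without KO replicate 3 to -0.22 after median centring. The groups overlapped after median centring, after normexp background correction and without scaling, where the difference was -0.14.

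Ghsr, the ghrelin receptor, read slightly higher in KO. Its level was -2.77, -2.74 and -2.73 on KO arrays and -2.87, -3.09 and -2.95 on WT arrays. The KO values lay within 0.04 of each other and above all WT values. The difference was 0.22 ± 0.12 (95% interval -0.05 to 0.50, adjusted p = 0.447 by limma, exact permutation p = 0.1). It was 0.00015 after normexp background correction, 0.40 after median centring and 0.48 without scaling, where the groups overlapped. The probe was dim, with a signal of 34.9 to 45.7 intensity units in KO and 23.3 to 36.7 in WT. The normexp offset of 50 was larger than these signals. Such an offset draws the log2 difference of a dim probe toward 0, so the normexp value does not test the Ghsr difference.

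Ceacam10, a secreted member of the carcinoembryonic antigen family, had the largest difference among the 9 tested genes at this scaling. Its level was 1.04, 1.15 and 0.97 on KO arrays and 0.33, 0.88 and 0.44 on WT arrays. WT replicate 2 lay close to the KO arrays and the other two WT arrays well below. Ceacam10 averaged 1.05 ± 0.09 in KO and 0.55 ± 0.29 in WT (SD, n = 3 each). The difference was 0.51 ± 0.17, a fold of 1.42 (95% interval of the log2 difference 0.10 to 0.91), with an unadjusted p of 0.0213 and an adjusted p of 0.344 in limma's fit, and an exact permutation p of 0.1. It was 0.67 without WT replicate 2 (adjusted p = 0.162 by limma, against 0.226 to 0.678 in its other tested alternatives), and 0.38 in the authors' deposited table. The groups stayed apart under all 5 scalings but overlapped without scaling, where the difference was 0.76.

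Pappa2, a protease that frees insulin-like growth factors from binding proteins, showed no settled direction. Its brighter probe read 3.52, 3.31 and 3.43 on KO arrays and 2.93, 3.83 and 3.57 on WT arrays. The WT arrays spanned the KO values. The difference was -0.02 ± 0.23 (95% interval -0.58 to 0.54, adjusted p = 0.978 by limma), and its sign was kept in 11 of 19 alternatives. The second Pappa2 probe was well above background on KO replicate 2 alone, which read -2.67, against -5.29 and -5.31 on the other KO arrays and -5.78, -4.92 and -6.43 on WT arrays. It was not tested in the filtered fit, the groups overlapped (exact permutation p = 0.3), and no fold is given, since 2 of the 3 KO arrays were also not well above background.

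Wnt10a, a secreted Wnt ligand, read 3.01, 3.40 and 2.83 on KO arrays and 2.23, 3.08 and 2.63 on WT arrays. The groups overlapped, since WT replicate 2 lay above 2 of the KO arrays. The difference was 0.44 ± 0.25 (95% interval -0.16 to 1.03, adjusted p = 0.482 by limma, exact permutation p = 0.3). Leaving out WT replicate 1 gave 0.23, leaving out KO replicate 2 gave 0.27, and leaving out WT replicate 2 gave 0.65.

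**Figure D3:**
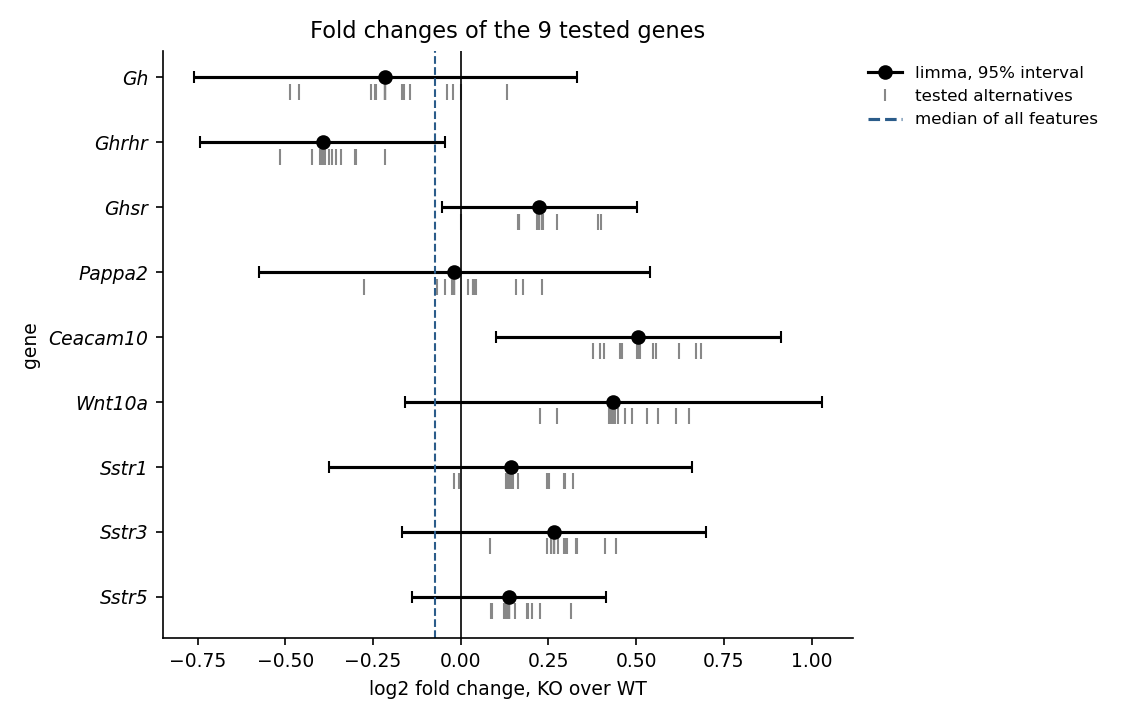
Log2 difference, KO over WT, of the 9 tested genes with its 95% interval, and ticks for the alternatives with a test; the dashed line is the median of all features. Ghrhr and Ceacam10 are the genes whose intervals leave out 0; the ticks of Pappa2, Gh and Sstr1 lie on both sides of 0.

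The somatostatin receptors showed no difference that passed the test. Sstr5, a receptor through which somatostatin restrains hormone release in the pituitary, read 4.001, 3.98 and 3.94 on KO arrays and 3.95, 3.74 and 3.82 on WT arrays. KO replicate 3 lay just below WT replicate 1, and the other KO arrays above all WT arrays. The difference was 0.14 ± 0.12 (95% interval -0.14 to 0.41, adjusted p = 0.611 by limma, exact permutation p = 0.2), and it was 0.09 without WT replicate 2.

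Sstr3 read 2.81, 2.72 and 2.79 on KO arrays and 2.80, 2.58 and 2.15 on WT arrays. Of its WT arrays, replicate 1 reached the KO level and replicate 3 stood lowest. The difference was 0.26 ± 0.18 (95% interval -0.17 to 0.70, adjusted p = 0.54 by limma), and it was 0.08 without WT replicate 3 and 0.41 without WT replicate 1.

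Sstr1 read 2.19, 2.82 and 2.49 on KO arrays and 2.07, 2.66 and 2.35 on WT arrays with its brighter probe. The ranges of the groups overlapped over most of their length. The difference was 0.14 ± 0.22 (95% interval -0.38 to 0.66, adjusted p = 0.776 by limma) and had the opposite sign without KO replicate 2 (-0.019) or without WT replicate 1 (-0.0043). Its dimmer probe, above background on 5 of 6 arrays, gave 0.36 ± 0.51 when each probe was tested alone, with the opposite sign after normexp background correction and without WT replicate 1.

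Sstr2 could not be tested after the filter on dim probes. Its probe was well above background on KO replicates 1 and 3 and on no WT array. The values were -4.53, -4.53 and -4.44 on KO arrays and -5.31, -5.22 and -5.45 on WT arrays, without overlap. The measured means were -4.50 in KO and -5.33 in WT. No fold is given for Sstr2, since KO replicate 2 and all WT arrays were not well above background. With only that filter dropped, limma gave an adjusted p of 0.267.

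Among the 9 tested genes, 3 did not overlap between the groups: Ghsr and Ceacam10 were higher in KO (7.23% of all features had no overlap and were higher) and Ghrhr was lower (13.4% of all features). In both directions together 20.6% of all features had no overlap. Their count depended on the scaling. It was 4 after quantile normalization (20% of all features) and 4 in the authors' deposited table (21%), with Sstr5 added on the higher side. It was 5 after median centring (21.5%), where Ghsr, Ceacam10, Wnt10a, Sstr3 and Sstr5 were higher. It was 3 after normexp background correction (19.7%), where Ceacam10, Sstr3 and Sstr5 were higher. Without scaling it was 0, against 2.89% of all features. Ceacam10 was the gene without overlap under all 5 scalings.

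The differences of 6 of the 9 genes were above 0, as were those of 39.3% of all features, and 7 lay above the median of all features, which was -0.07. The median of the 9 genes was 0.14. Median centring moved the median of all features to 0.10, a shift of more than 0.1, and 7 of the 9 genes lay above the median there too. For 7 of the 9 genes the standard deviation was larger in WT than in KO, as it was for 69.7% of all features. The median standard deviation of a feature was 0.146 in KO and 0.226 in WT.

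Around these genes, 8 lists of pathway genes held no called gene, whether higher or lower. Their counts stand against 39.3% of all features above 0 and 20.6% without overlap. Of the GHRH receptor and cyclic AMP pathway, 14 of 15 genes were tested, 9 lay above 0 and 3 had no overlap, with a median difference of 0.07. Its smallest p values belonged to Cacna1c, an L-type calcium channel subunit (-0.66 ± 0.22, adjusted p = 0.344, and -0.29 after normexp background correction), and to Adcy3, an adenylyl cyclase (0.63 ± 0.26, adjusted p = 0.387, by limma), whose difference was 0.16 after normexp and 0.33 without WT replicate 2. The 16 tested somatostatin ligands and receptor effectors had a median of -0.03 and 4 genes without overlap. Gnao1, an inhibitory G protein subunit, read 2.68, 2.70 and 2.77 on KO arrays and 2.23, 2.48 and 2.17 on WT arrays, a difference of 0.43 ± 0.13 (adjusted p = 0.321 by limma) that was 0.21 when the probes of the gene were averaged. Arrb2, an arrestin, gave -0.47 ± 0.17, with overlapping groups.

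The ghrelin axis list, which also held Lepr and general G protein signalling genes, had 7 of 8 genes tested. Of these, 6 lay above 0 and 2 had no overlap, with a median of 0.14. Mrap2, an accessory protein of melanocortin and ghrelin receptors, gave 0.42 ± 0.21, and Lepr, the leptin receptor, -0.39 ± 0.23, both with overlapping groups. Mrap2 was 0.27 without WT replicate 3, and Lepr was -0.17 without WT replicate 1, -0.60 without WT replicate 2 and -0.14 when its probes were averaged. The 16 transcription factors of the somatotrope lineage had a median of 0.01, with 8 above 0 and 3 without overlap. Among them Insm1, a zinc finger factor of endocrine cells, read 4.06, 4.08 and 3.95 on KO arrays and 4.17, 4.59 and 4.91 on WT arrays (-0.53 ± 0.20, adjusted p = 0.363 by limma, and -0.35 without WT replicate 3). Zbtb20, needed for lactotrope development in mice, gave 0.49 ± 0.21, with overlap, and 0.29 without WT replicate 1.

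Of the genes of growth hormone and IGF feedback, 15 were tested and 10 lay above 0, with a median of 0.13 and 1 gene without overlap. That gene was Socs3, an inhibitor of cytokine signalling, with 1.62, 1.52 and 1.78 on KO arrays and 2.54, 2.74 and 1.98 on WT arrays. All KO arrays lay below the lowest WT array, replicate 3, and the difference was -0.78 ± 0.21 (adjusted p = 0.301 by limma). Cish, a second inhibitor of the same family, gave 0.53 ± 0.33 with overlap, 0.14 without WT replicate 3 and 0.81 without WT replicate 2. The list of pappalysin substrates and inhibitors also held Pappa and IGF-binding proteins in general. Of its 10 genes 7 were tested, with a median of -0.01. Igfbp6, an IGF-binding protein, was the 1 gene without overlap (-0.75 ± 0.21, adjusted p = 0.304 by limma), and Stc2, an inhibitor of pappalysins, gave -0.34 ± 0.26, which was -0.08 without WT replicate 2 and -0.62 without WT replicate 1.

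Of the relatives of Ceacam10, 3 of 11 could be tested, 10 being on the array, and their median was 0.29. Ceacam16 gave 1.16 ± 0.46 without overlap, 0.04 after normexp background correction and 0.59 without WT replicate 1. Its dim probe was well above background on 5 of 6 arrays. WT replicate 1 read lowest, -5.72 against -3.83 and -4.20 on the other WT arrays, so the size of this difference is uncertain. Ceacam2 gave 0.29 ± 0.20, with 0.19 without WT replicate 1 and 0.46 without WT replicate 2. Probe sequences are not used here, so cross-hybridisation within this family was not tested. Of the Wnt ligands and targets, 12 of 14 were tested, 3 lay above 0 and 2 had no overlap, with a median of -0.15. Axin2, a feedback inhibitor that Wnt signalling induces, read -3.29, -3.36 and -3.30 on KO arrays and -2.80, -2.78 and -2.82 on WT arrays. The arrays of each group lay within 0.1 of one another, and the difference was -0.52 ± 0.11 (adjusted p = 0.23 by limma), or -0.31 after normexp background correction. Lgr5, a receptor that is also a Wnt target, gave -0.55 ± 0.18 (adjusted p = 0.336, limma), without overlap, and -0.29 after normexp.

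**Figure D4:**
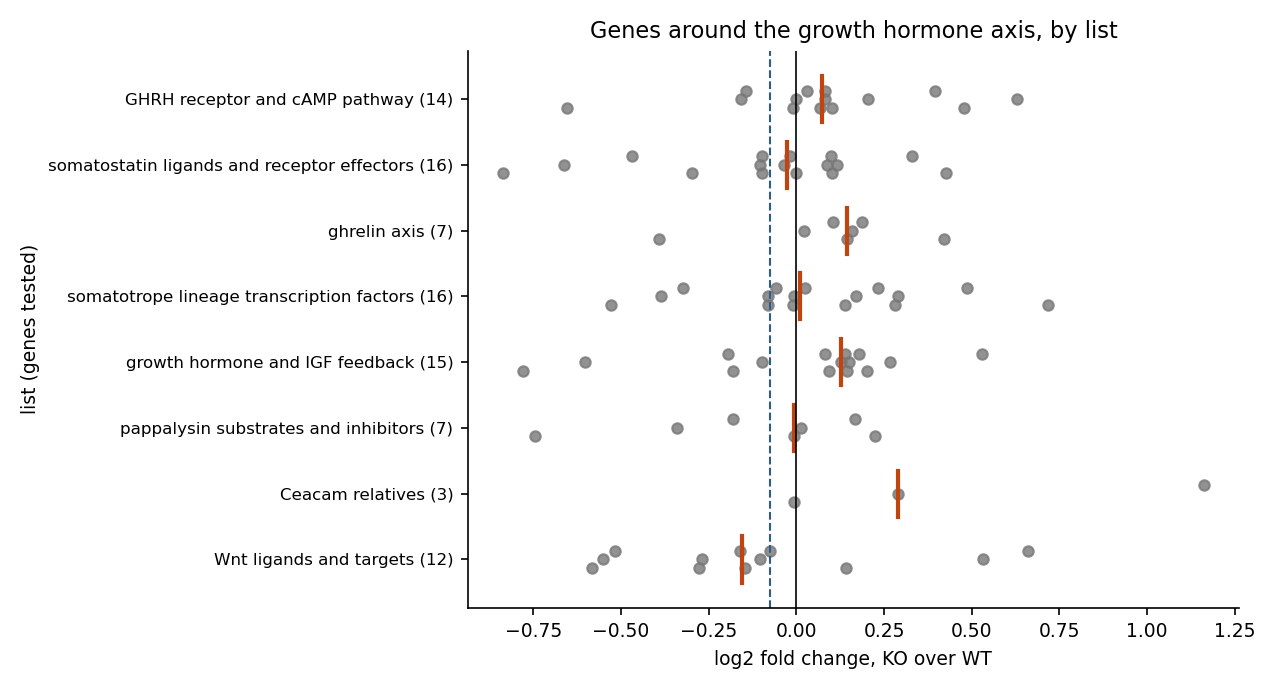
Log2 difference, KO over WT, of the tested genes of each of the 8 pathway lists. Points are genes, the orange bar is the list's median and the dashed blue line the median of all features (-0.07). List medians run from -0.15 for Wnt ligands and targets to 0.29 for the Ceacam relatives.

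Markers of the somatotropes and of other cells of the gland were summed on the linear scale relative to the 75th percentile. All 6 somatotrope markers, which are members of the set above, were well above background on all arrays, and their sum, led by Gh, was 635 to 739 in KO and 585 to 1039 in WT. The lactotrope sum, led by Prl, was 452 to 547 in KO and 449 to 780 in WT, with 3 of its 5 markers measured (Agtr1b and Edar were not above background on any array). Since Gh and Prl were nearly level before scaling, both sums largely followed the 75th percentile turned over. The single markers went both ways, none called. Of the somatotrope markers 3 of 6 lay above 0 (Ceacam10 0.51, Ghrhr -0.39). Of the lactotrope markers 1 of 3 did (Drd2 0.31, Prl -0.26, Trhr -0.38). The stem and folliculostellate sum of 6 markers was 96.8 to 114 in KO and 89.0 to 91.1 in WT, without overlap. That sum was led by Mia, whose difference was 0.28, whereas the median over its 6 markers was -0.06 and 4 of them, among them Sox2 (-0.08) and S100b (-0.34), had differences below 0. The neutrophil sum of 5 markers, S100a8 among them, was 2.51 to 2.86 in KO and 3.10 to 15.4 in WT, with its highest value in WT replicate 3, and the Schwann cell sum was 12.5 to 13.5 in KO and 11.5 to 19.8 in WT. The erythroid sum was 163 to 515 in KO and 290 to 408 in WT. Their part in the differences of Ghrhr, Ghsr and Ceacam10 was not tested.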

How the data were processed

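RNA of 6 pituitaries was labelled with Cy3 and hybridised to one-colour Agilent arrays, per the labels' protocols. Per the file headers, the arrays lay on 1 slide read in 1 scan. The deposited intensity values (gProcessedSignal) came from Agilent Feature Extraction 11.0.1.1, per the file headers, background-subtracted but not normalized between arrays. The authors' value table holds deposited log2 values of 29154 spots for 26625 probes, which correlate at 0.997 or more with the log2 median brightness of the same array. Its medians are 8.25 to 8.26. The submitters' processing notes name limma, and how the table was normalized is not stated.

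Without control and outlier spots, log2 values were averaged per probe and set relative to the 75th percentile of their array. A probe had to be well above background on 3 or more arrays, and the brightest probe stood for its gene, which gave 26887 features (16461 with a symbol). Of the probes, 27656 matched a RefSeq symbol. The array's own build differs from that of the annotation, so no gene coordinates are given apart from the promoter windows. The comparison of KO and WT used limma 3.58.1 (lmFit, eBayes, two-sided) in R 4.3.3 with data.table (version 1.17.8), and Benjamini-Hochberg adjustment over all features. Single genes also got an exact permutation test, two-sided, with 10 splits of the 6 arrays. The growth hormone genes and the pathway and marker lists were chosen with earlier results of these data known. All genes of the set, the 2 smallest p of each pathway list and the 5 genes nearest to Gh are named. The steps were tested on simulated data.

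Alternatives in scaling were normexp background correction (offset 50, on median brightness), quantile normalization, median centring and the authors' deposited values. The normexp offset draws the log2 differences of dim probes toward 0, so its small values for such probes do not test their differences. Alternatives in the filter were none at all and one that asks for all arrays. Probes of a gene were averaged or tested singly, and the model was given array weights, a robust variance trend, or a block for slide row or replicate number. Arrays were also left out in turn, and slide rows taken alone. The overlap of the groups without scaling and under each scaling was added after seeing the data. Same-numbered KO and WT arrays had correlations of deviations of 0.15, -0.18 and -0.08, so the numbers were not taken as pairs.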

Additional observations from a re-analysis of the deposited data

How the results depend on the processing

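The growth hormone genes called at an adjusted p under 0.05 numbered 0 under every alternative with a test, the lowest adjusted p being 0.162 for Ceacam10 without WT replicate 2. Over all features the count of calls was 0, against 24 after normexp background correction, 19 after median centring, 27 in the authors' deposited table, 12 with the filter on all arrays and 28 with a variance trend and robust fitting. Leaving out 1 array gave 0 to 1 calls (1 without WT replicate 1), and 1960 (without KO replicate 3) to 5485 (without WT replicate 2) features at an unadjusted p under 0.05, against 3443, with 2148 without KO replicate 2. Of the features at an unadjusted p under 0.05, 68.8% were lower in KO, against 67.7% after normexp, 42.9% after quantile normalization, 22.9% after median centring and 46.8% in the authors' deposited table. With the replicate block 0 features were called and the lowest adjusted p of a growth hormone gene was 0.446, so the block changed no call.

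The Pappa2 difference was -0.02, and reversed to 0.035 after normexp, 0.020 after quantile normalization, 0.159 after median centring, 0.036 in the authors' deposited table, 0.232 in slide row 1 alone, 0.036 without KO replicate 2, 0.177 without WT replicate 2 and 0.044 without WT replicate 3 (-0.28 to 0.18 over the left-out arrays). Gh reversed to 0.13 in the authors' deposited table and 0.33 in slide row 2 alone, against -0.49 in slide row 1 alone, and ran from -0.46 to -0.02 over the left-out arrays. Sstr1 reversed to -0.019 without KO replicate 2 and -0.0043 without WT replicate 1 (up to 0.30, without KO replicate 1), and its dimmer probe to -0.044 after normexp and -0.24 without WT replicate 1 (up to 0.73, without WT replicate 3). In slide row 2 alone, where 1 KO array (replicate 2) met 1 WT array (replicate 2) and no test is possible, Cish was -0.089, Arrb2 0.0044, Ceacam2 -0.31 and Lepr 0.12. The cause of these reversals was not tested. Dim probes included those of Ghsr, Sstr2, Ceacam16, Cacna1c, Adcy3, Stc2, Lgr5 and Axin2 and the dimmer probes of Pappa2 and Sstr1. Of these, Ghsr, Cacna1c, Adcy3, Stc2, Lgr5 and Axin2 were well above background on all 6 arrays. Whether signal near background limited the values of the dim probes was not tested.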
